A study of Mus musculus with 6 samples.

Results

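The angiotensin, endothelin and urotensin genes examined here were *Agt*, *Ace*, *Agtr1a*, *Agtr2*, *Uts2r*, *Edn1*, *Ece1*, *Ednra* and *Ednrb*, 9 of the 53819 genes listed in the count table, and were taken by symbol. *Agt* and *Uts2r* were selected on their measured log2 fold changes, for their lower counts in depleted tendons, so their values are given as a description with no test, while the other 7 were read from a fit across all genes. The RNA came from repaired flexor digitorum longus (FDL) tendons of the mouse hind paw, harvested at D28 post-surgery, with 3 tendons per genotype and 1 tendon per library. This is the time the paper gives, while the sample titles read D28 post-depletion. Mice of both genotypes carried 1 Rosa-DTR allele (DTR F/+), which is silent until Cre removes a stop cassette, and all received 5 daily local injections of diphtheria toxin (DT) between D14 and D18. DTRScxLin mice (Scx-Cre+; DTR F/+) express the toxin receptor in every cell of the *Scleraxis* lineage, whether or not *Scx* is still on, and their Cre-negative littermates (Scx-Cre-; DTR F/+) are called WT. Males and females of 10 to 12 weeks at surgery were used. Each library held between 42744138 and 48854310 counts. Since the RNA is of whole tendon, fewer cells of a type and less RNA per cell cannot be told apart.

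These genes belong to 3 peptide hormone systems best known for constricting blood vessels. In the renin-angiotensin system the liver and fat secrete angiotensinogen (*Agt*), renin releases angiotensin I from it, and angiotensin-converting enzyme (*Ace*) trims this to angiotensin II, which acts on the AT1 receptor (*Agtr1a*) and the AT2 receptor (*Agtr2*), the latter abundant in fetal and wounded connective tissue. Preproendothelin 1 (*Edn1*) comes mainly from endothelium, is processed by endothelin-converting enzyme 1 (*Ece1*) and binds the receptors ETA (*Ednra*) and ETB (*Ednrb*). Urotensin II and its related peptide act on *Uts2r*, a receptor of the same G protein-coupled class.

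The bases before the annotated starts of *Agt* and *Uts2r* (the picked genes) and of *Ednra* are shown because these are the genes with the clearest separation between genotypes below. Promoters of 8 of the 9 genes were matched by symbol in a RefSeq table of GRCm38.p6 (*Agtr1a* is named only), and the 250 bases that end just before the start are printed on the gene's own strand. Capitals mark matches on either strand to TATAAA (the TATA box) or to CANNTG (the E-box, which includes CATCTG).
*Agt*, chr8:124569707-124569956, minus strand: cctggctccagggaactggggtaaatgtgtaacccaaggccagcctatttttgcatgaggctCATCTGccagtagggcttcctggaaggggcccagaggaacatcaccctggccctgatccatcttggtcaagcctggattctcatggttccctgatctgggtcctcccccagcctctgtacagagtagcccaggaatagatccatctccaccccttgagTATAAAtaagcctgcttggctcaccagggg
*Uts2r*, chr11:121160021-121160270, plus strand: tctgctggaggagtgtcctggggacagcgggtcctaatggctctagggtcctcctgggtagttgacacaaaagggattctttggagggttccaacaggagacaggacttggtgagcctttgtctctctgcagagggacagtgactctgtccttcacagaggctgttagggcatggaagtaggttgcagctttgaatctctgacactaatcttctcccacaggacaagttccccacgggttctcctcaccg
*Ednra*, chr8:77724453-77724702, minus strand: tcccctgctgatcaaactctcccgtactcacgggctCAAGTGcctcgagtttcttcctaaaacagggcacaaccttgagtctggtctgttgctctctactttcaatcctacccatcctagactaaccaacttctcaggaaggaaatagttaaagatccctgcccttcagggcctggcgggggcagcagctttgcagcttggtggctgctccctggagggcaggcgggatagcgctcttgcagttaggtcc

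The *Agt* window held TATAAA at position -30 from the start and CATCTG, the E-box letters that scleraxis is known to bind, at -188. *Uts2r* had no match to any motif searched (also GGGCGG, the GC box, and TGACTCA, the AP-1 site), and *Ednra* had a single E-box at -214. Among 32851 RefSeq promoter windows of the same length, 12.4% held TATAAA, 66.2% CANNTG, 14.4% CATCTG, 32.7% GGGCGG and 4.46% TGACTCA. The matches are letters in a window and show no binding.

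*Agt*, the precursor of all angiotensin peptides, was at 373, 124 and 367 across the WT replicates and at 55.7, 60.3 and 40.1 across the DTRScxLin replicates (normalized counts, that is counts scaled by TMM to the mean library size, the unit of all per-library gene values here, listed in the order of replicates 1 to 3). Each DTRScxLin library was below each WT library, and WT replicate 2 was about midway on a log scale between the other WT libraries and the DTRScxLin libraries. The means were 288 ± 142 in WT and 52.0 ± 10.6 in DTRScxLin tendons (SD, n = 3 each), a 5.52-fold difference (log2 fold change -2.47, standard error 0.44). With 1 library left out the log2 fold change was between -2.83 and -2.24, the former without WT replicate 2. Among 14409 genes with at least 50 normalized counts on average, *Agt* ranked 210 and *Uts2r* 648 from the most negative log2 fold change. These ranks use the values on which both genes were picked.

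*Uts2r*, the urotensin receptor, gave 3076, 3653 and 3468 for the WT tendons in replicate order and 1449, 1706 and 2053 for the DTRScxLin tendons. No library of one genotype entered the range of the other, which can follow from picking the gene for its fall. The means were 3399 ± 295 and 1736 ± 303 (SD, n = 3 each), a 1.96-fold difference (log2 fold change -0.97, standard error 0.14), and with 1 library left out the log2 fold change lay between -1.11 and -0.86. The annotation used here (GENCODE M21, GRCm38) gives *Uts2r* 1 exon of 1703 bases on chromosome 11, with the nearest other gene 3498 bases away, so no annotated neighbour shares its reads. Its ligand genes *Uts2* and *Uts2b* were listed with 0 counts in all 6 libraries, which allows at most 3.12 normalized counts per library (3 counts, counting error only).

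**Figure D1:**
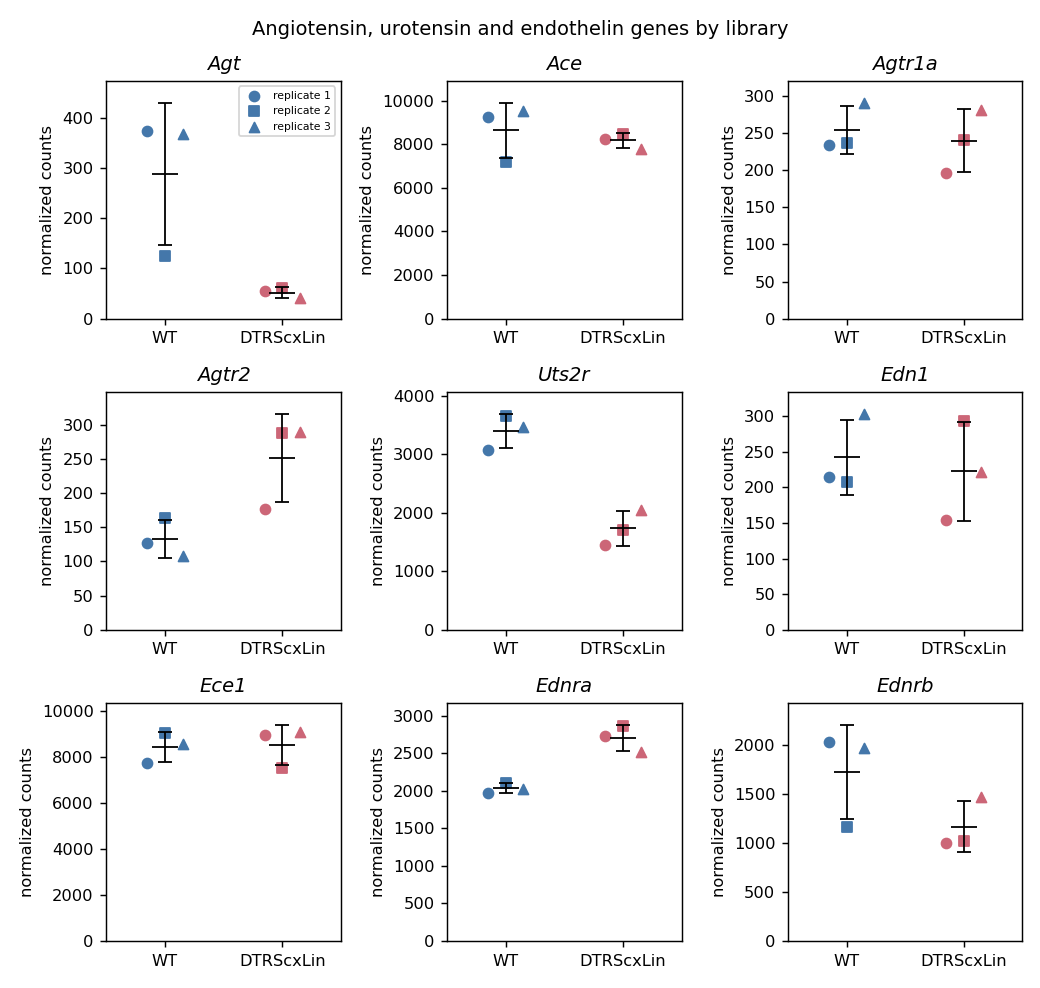
Normalized counts of the 9 genes (y axis, from 0) in WT and DTRScxLin tendons (x axis), with 1 point per library, marker shapes for the replicate numbers, and mean ± SD in black. *Agt* and *Uts2r* were lower in each DTRScxLin library, *Ednra* and *Agtr2* higher in each, and the other 5 genes overlapped between the genotypes.

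Across all genes, edgeR's quasi-likelihood test with Benjamini-Hochberg adjustment called 0 of 17496 tested genes (0%) at an adjusted p under 0.05, with 1918 (11%) at an unadjusted p under 0.05. DESeq2's Wald test called 466 of 17564 (2.65%, of which 1.12% higher and 1.53% lower of all tested). Of the 7 genes not picked for their difference, edgeR called 0, with 2 higher and 0 lower at an unadjusted p under 0.05 (5.52% and 5.45% of all tested genes), and DESeq2 called the same pair higher, *Ednra* and *Agtr2*. The median log2 fold change of the 7 was -0.08, beside 0.01 over all genes tested. Without overlap between genotypes were 2 of the 7, both higher, where 16.8% of all tested genes did not overlap (8.96% higher and 7.85% lower).

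*Ednra*, the ETA receptor through which endothelin 1 contracts smooth muscle, stood at 1970, 2103 and 2015 in the WT tendons, against 2725, 2860 and 2509 in the DTRScxLin tendons. Its WT libraries were nearly equal, and the lowest DTRScxLin library was above the highest WT library. The log2 fold change was 0.41 (standard error 0.082, 95% interval 0.22 to 0.60), with an adjusted p = 0.274 from edgeR and 0.0195 from DESeq2 over all genes. Mural and smooth muscle cells mainly carry ETA in vessels. Of 14 of their markers, 13 were fitted lower and 1 higher (8479 of all 17496 tested genes were fitted lower). Between the genotypes 13 overlapped, and 1 was lower without overlap (7.85% of all tested genes). This was *Abcc9*, a potassium channel subunit, also the 1 lower at an unadjusted p under 0.05 (5.45% of all tested genes). The summed level of the 14 was 2629 to 3525 CPM in WT and 2344 to 2471 CPM in DTRScxLin libraries, with none at 0. Without *Des*, which skeletal muscle also expresses, the sums overlapped, at 2229, 2068 and 2980 CPM for WT and 2244, 1812 and 2063 CPM for DTRScxLin, a choice made after seeing the data. The part of these cells in the *Ednra* difference was not tested. *Ednra* was as high without any one library, at a log2 fold change from 0.37 to 0.46.

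*Ednrb*, the ETB receptor that clears endothelin and acts on endothelium and glia, was at 2034, 1167 and 1968 across the WT replicates and at 1004, 1024 and 1466 across the DTRScxLin replicates. WT replicate 2 was inside the DTRScxLin range, so the genotypes overlapped. The log2 fold change was -0.56 (standard error 0.26, 95% interval -1.19 to 0.06, adjusted p = 0.477 from edgeR and 0.213 from DESeq2). Endothelial markers summed to 908, 1068 and 1192 CPM in WT and 971, 953 and 1042 CPM in DTRScxLin replicates 1 to 3, with none at 0. Of the 14, 12 were fitted lower and 2 higher (8479 of all 17496 tested genes were fitted lower). At an unadjusted p under 0.05 were 0 of them (11% of all tested genes). Schwann cell markers summed to 646, 1139 and 1041 CPM in WT and 499, 646 and 792 CPM in DTRScxLin replicates 1 to 3, with none at 0. At an unadjusted p under 0.05 were 3 of 12 lower and 1 higher (5.45% and 5.52% of all tested genes). In WT the library with the least *Ednrb* had the most Schwann cell transcripts, while in DTRScxLin tendons both rose from replicate 1 to replicate 3. The part of these cells in the difference was not tested.

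Counts of the paired receptors were compared per kilobase of exon, since the genes differ in length. The ratio of *Ednra* to *Ednrb* on this scale was 0.755, 1.40 and 0.798 in WT and 2.11, 2.18 and 1.33 in DTRScxLin replicates 1 to 3. It was above 1 in each DTRScxLin library, but WT replicate 2 was above DTRScxLin replicate 3. The ratio depends on the exons counted, since the longest *Ednra* transcript has 3625 bases and the union of its exons 5476, and with the longest transcripts it was above 1 in each library of both genotypes (1.097, 2.04 and 1.16 in WT, 3.08, 3.17 and 1.94 in DTRScxLin tendons).

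*Edn1*, the endothelin 1 precursor, gave 215, 208 and 304 for the WT tendons in replicate order and 154, 293 and 222 for the DTRScxLin tendons. Both its lowest and nearly its highest level were in DTRScxLin libraries, and the log2 fold change of -0.12 (standard error 0.28, 95% interval -0.76 to 0.52, adjusted p = 0.899 from edgeR) leaves room for a difference in either direction. Its enzyme *Ece1* stood at 7740, 9045 and 8574 in the WT tendons, against 8976, 7514 and 9089 in the DTRScxLin tendons. The genotype means nearly coincided (log2 fold change 0.01, standard error 0.11, 95% interval -0.24 to 0.27, adjusted p = 0.977 from edgeR).

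*Agtr2*, the AT2 receptor that opposes many effects of AT1, was at 127, 163 and 108 across the WT replicates and at 176, 288 and 289 across the DTRScxLin replicates. The lowest DTRScxLin library was just above the highest WT library, while the other DTRScxLin libraries were well above. The log2 fold change was 0.92 (standard error 0.27, 95% interval 0.30 to 1.54), with an adjusted p = 0.353 from edgeR and 0.0423 from DESeq2 over all genes. In DTRScxLin replicates 2 and 3 and WT replicate 2, *Xist* had 49303 to 54082 counts, against at most 4 in the other libraries, so the animals were of both sexes in each genotype, and *Agtr2* is on the X chromosome. Within each genotype *Agtr2* was higher where *Xist* was present, at 163 against 127 and 108 in WT and at 288 and 289 against 176 in DTRScxLin tendons, and the part of sex in the difference was not tested beyond the covariate that follows. With the *Xist* level as a covariate the log2 fold change of *Agtr2* was 0.69 (edgeR adjusted p = 0.311).

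*Agtr1a*, the AT1 receptor of most vascular and fibroblast responses to angiotensin II, gave 233, 237 and 291 for the WT tendons in replicate order and 197, 241 and 282 for the DTRScxLin tendons. The ranges nearly coincided (log2 fold change -0.08, standard error 0.20, 95% interval -0.54 to 0.38, adjusted p = 0.906 from edgeR). Per kilobase, the ratio of *Agtr2* to *Agtr1a* was 0.455, 0.575 and 0.311 in WT and 0.750, 1.00 and 0.859 in DTRScxLin replicates 1 to 3, without overlap. With the longest transcripts in place of the union of exons the ratio was 0.364, 0.460 and 0.249 in WT and 0.600, 0.800 and 0.687 in DTRScxLin tendons, again without overlap. The AT2 transcript was the scarcer of the pair in each WT library by both lengths. *Ace* stood at 9223, 7203 and 9512 in the WT tendons, against 8250, 8475 and 7794 in the DTRScxLin tendons. Its DTRScxLin libraries all lay inside the WT range (log2 fold change -0.08, standard error 0.12, 95% interval -0.36 to 0.20, adjusted p = 0.834 from edgeR).

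The levels per kilobase of exon spanned a wide range. In WT tendons *Uts2r* was the highest, at 1996 ± 173 normalized counts per kilobase, followed by *Ace* at 1635 ± 238 and *Ece1* at 1595 ± 125 (SD, n = 3 each), and the last 2 overlapped. *Ednrb* and *Ednra*, at 404 ± 113 and 371 ± 12.3, overlapped with each other and were below *Ece1* in each library. *Agt*, *Edn1* and *Agtr1a* followed at 152 ± 74.9, 113 ± 24.8 and 91.1 ± 11.6, each overlapping with the next, and *Agtr2* was the lowest at 39.9 ± 8.37 (SD, n = 3 each).

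In DTRScxLin tendons the order was *Ece1* (1609 ± 166 normalized counts per kilobase), *Ace* (1546 ± 65.6), *Uts2r* (1019 ± 178), *Ednra* (493 ± 32.3), *Ednrb* (273 ± 61.3), *Edn1* (104 ± 32.5), *Agtr1a* (86.1 ± 15.2), *Agtr2* (75.5 ± 19.5) and *Agt* (27.5 ± 5.59; SD, n = 3 each). The ranges of *Ece1* and *Ace* overlapped, as did those of *Edn1*, *Agtr1a* and *Agtr2* with their neighbours in this group of 3. *Agt* moved from the sixth place in WT to the last, below each *Agtr2* library. With the longest transcript in place of the union of exons, *Ednra* stood above *Ednrb* in WT as well, at 560 against 419, and *Agtr1a* stood just above *Edn1* in both genotypes.

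**Figure D2:**
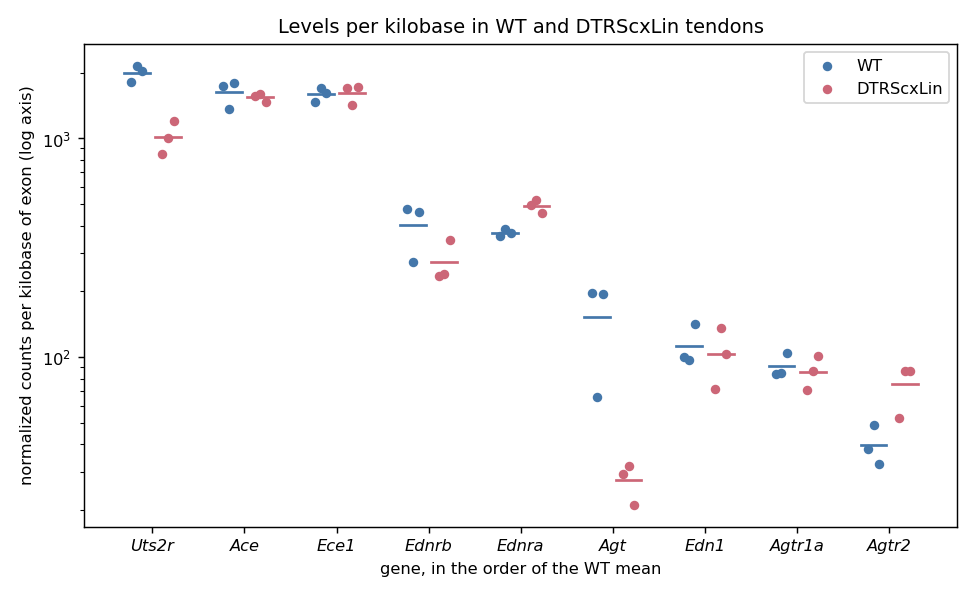
Normalized counts per kilobase of annotated exon (y axis, log scale) of the 9 genes in the order of their WT mean (x axis), with 1 point per library and a line at each mean. *Uts2r* was highest in WT, and *Agt* was lowest in DTRScxLin tendons at 27.5.

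The genes also differed in how much they varied between tendons of 1 genotype. Among the 14409 genes with at least 50 normalized counts on average, the WT spread of *Agt* (SD of log2 CPM 0.90) was at percentile 97.2 and that of *Ednrb* (0.45) at 91.3, and WT replicate 2 was the lowest WT library for both. *Ednra* was at percentile 10.1 in WT (0.048) and 25.3 in DTRScxLin (0.095). *Edn1* had the widest spread of the 9 in DTRScxLin tendons (0.46, percentile 87.4), and *Ace* the narrowest there (0.062, percentile 11.8). In total counts *Ece1* and *Ace* were at percentiles 95.3 and 95.2 of all genes tested and *Agt* at 29.8.

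Fat is a known source of *Agt*, and adipocyte transcripts differed between the same libraries. Of 14 adipocyte markers 13 were tested, and all 13 were fitted lower in DTRScxLin tendons, with a median log2 fold change of -2.16. At an unadjusted p under 0.05 were 8 (5.45% of all tested genes were lower). Without overlap between genotypes were 7 (7.85% of all tested genes were lower). None was at 0 in all libraries, and the summed level was 1170 to 2062 CPM in WT and 345 to 1467 CPM in DTRScxLin libraries, and the most abundant of the list in each library was *Car3*, which skeletal muscle also expresses. *Adipoq*, the adipocyte hormone adiponectin, was at 96.4, 187 and 273 across the WT replicates and at 17.5, 62.2 and 26.7 across the DTRScxLin replicates. *Plin1*, which coats fat droplets, gave 68.0, 119 and 117 for the WT tendons in replicate order and 5.15, 32.5 and 25.7 for the DTRScxLin tendons. Within a genotype the order differed from that of *Agt*. WT replicate 1 had the most *Agt* and the least *Adipoq* of the WT libraries, and DTRScxLin replicate 1 had *Agt* at 55.7 with *Plin1* at 5.15. The part of fat in the lower *Agt* was not tested beyond these values.

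Skeletal muscle transcripts were also lower in part of the DTRScxLin libraries. The summed level was 16597 to 23538 CPM in WT, 21132 in DTRScxLin replicate 2 and 3072 and 5303 in replicates 1 and 3. All 18 muscle markers were fitted lower (8479 of all 17496 tested genes were). At an unadjusted p under 0.05 were 0 of them (5.45% of all tested genes were lower), and 4 were lower without overlap (7.85% of all tested genes). *Uts2r* in DTRScxLin replicate 2, whose muscle level was inside the WT range, was at 1706, between the 1449 and 2053 of the other DTRScxLin libraries. With the muscle level as a covariate the log2 fold change of *Uts2r* was -0.95 and that of *Agt* -2.32, while with *Xist* as a covariate they were -1.07 and -1.997. The part of muscle in either difference was not tested beyond these values. *Xist* was present in WT replicate 2, the WT library with the least *Agt* (124 normalized counts), and in DTRScxLin replicates 2 and 3 (60.3 and 40.1). The libraries without *Xist* had *Agt* at 373 and 367 in WT and at 55.7 in DTRScxLin. The part of sex in either difference was not tested beyond these values, and both genes were picked for their fall in the same libraries.

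By the root-mean-square difference of log2 CPM from the gene's mean over the 6 libraries, the genes whose pattern was nearest to *Agt* were *Cd209d* (0.23), *Clec3a* (0.44), *Pla2g2d* (0.53), *Serpina3c* (0.59) and *Adh1* (0.69). *Cd209d*, a C-type lectin gene, stood at 176, 92.3 and 169 in the WT tendons, against 28.9, 33.5 and 18.5 in the DTRScxLin tendons, so that WT replicate 2 was between the others as for *Agt*. Among the nearest to *Uts2r* were *Lrrc36* (0.14), *Adam1a* (0.15), *Hoxa3* (0.15) and *Bend7* (0.15). *Hoxa3*, a homeobox gene, was at 156, 179 and 167 across the WT replicates and at 82.4, 79.4 and 128 across the DTRScxLin replicates. Likeness over 6 libraries is a description, since these genes share every library and the difference between genotypes.

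**Figure D3:**
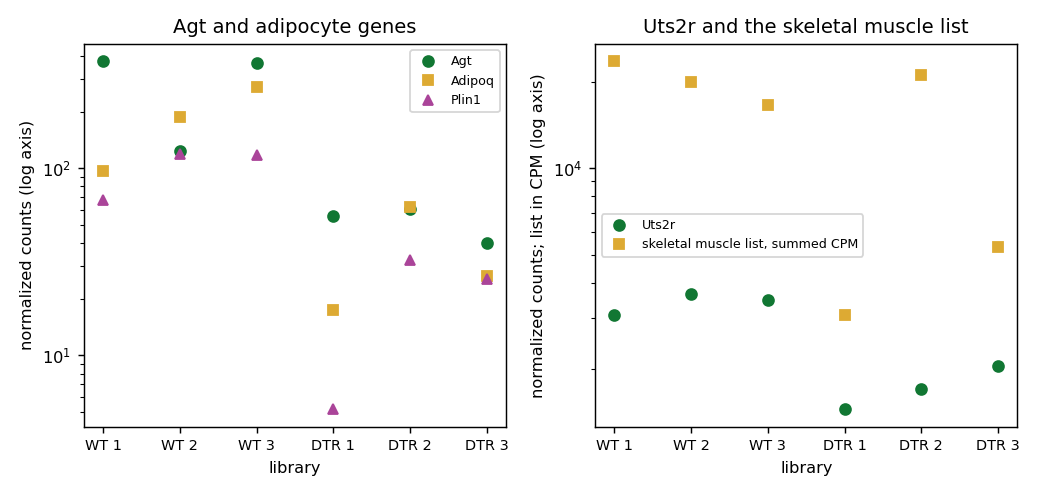
Levels in each of the 6 libraries (x axis, DTR for DTRScxLin) on log axes, with *Agt*, *Adipoq* and *Plin1* in normalized counts on the left, and *Uts2r* in normalized counts with the summed CPM of 18 skeletal muscle markers on the right. *Agt* and the adipocyte genes were lower in the DTRScxLin libraries but ranked differently within a genotype, and *Uts2r* was at 1706 in DTRScxLin replicate 2, where the muscle level of 21132 CPM was inside the WT range.

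The wider angiotensin system was read from a list of 20 further genes, of which 19 were in the table and 15 were tested. edgeR called 0 (0 also by DESeq2), and the median log2 fold change was 0.03. At an unadjusted p under 0.05, 2 were lower and 0 higher (5.45% and 5.52% of all tested genes). Without overlap, 3 were higher and 1 lower (8.96% and 7.85% of all tested genes). *Enpep*, aminopeptidase A, which converts angiotensin II to angiotensin III, gave 1528, 1928 and 1689 for the WT tendons in replicate order and 1190, 1463 and 1158 for the DTRScxLin tendons (log2 fold change -0.43 with SE 0.13, edgeR adjusted p = 0.354).

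The mast cell protease gene *Cma1*, whose product can make angiotensin II without ACE, was at 598, 867 and 812 across the WT replicates and at 182, 749 and 326 across the DTRScxLin replicates (log2 fold change -0.86 with SE 0.54, edgeR adjusted p = 0.588). The 10 mast cell markers, which include *Cma1*, summed to 89.1 to 118 CPM in WT and 42.2 to 87.1 CPM in DTRScxLin libraries, with none at 0. Of these, 9 were fitted lower, 4 at an unadjusted p under 0.05 (5.45% of all tested genes) and 5 without overlap (7.85%). The 1 fitted higher, *Hdc*, was named after its values were seen. It was at 256, 203 and 110 in WT and at 1921, 394 and 170 in DTRScxLin replicates 1 to 3.

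Among the abundant members of this list, *Ctsa*, *Anpep*, *Atp6ap2* and *Lnpep* had log2 fold changes from -0.01 to 0.17. *Atp6ap2* (the prorenin receptor), *Agtrap* (which binds AT1) and *Prep* (a peptidase that cleaves angiotensins) were higher in each DTRScxLin library, by 0.17, 0.14 and 0.11 on the log2 scale with standard errors of 0.09, 0.08 and 0.07. Renin itself was near the limit of detection, with *Ren1* at 2.03, 0 and 3.12 normalized counts in WT and 0 in each DTRScxLin library, and the receptor genes *Mas1* and *Mrgprd* were at most 7.21 in any library.

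Of 8 further endothelin and urotensin genes only 2 were abundant enough to test, and 0 of these had an unadjusted p under 0.05. *Phex*, a protease related to the endothelin-converting enzymes that is known for phosphate balance in bone, gave 99.5, 66.9 and 68.6 for the WT tendons in replicate order and 15.5, 65.0 and 33.9 for the DTRScxLin tendons (log2 fold change -1.03 with SE 0.50, edgeR adjusted p = 0.482). Its highest DTRScxLin library was just below its lowest WT library. *Ece2* stood at 22.3, 16.01 and 35.3 in the WT tendons, against 31.9, 23.9 and 64.7 in the DTRScxLin tendons. The ligand genes *Edn2* and *Edn3* were at most 3.08 and 17.3 normalized counts in any library, so *Edn1* was the endothelin gene with the most counts in each library.

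The receptors signal through Gq, G12 and G13 to phospholipase C, calcium and the contractile apparatus. All 33 genes of this signalling list were tested, with a median log2 fold change of -0.01 and 0 called by edgeR or DESeq2. At an unadjusted p under 0.05 were 1 higher and 2 lower (5.52% and 5.45% of all tested genes). The 2 lower were *Itpr1*, a calcium release channel (log2 fold change -0.30, standard error 0.09), and *Mylk*, myosin light chain kinase (-0.49, standard error 0.15). The 1 higher was *Prkca*, protein kinase C alpha (0.25, standard error 0.08). *Mylk* was at 5103, 5145 and 6327 across the WT replicates and at 4795, 3665 and 3364 across the DTRScxLin replicates, below the WT range in each. *Gnaq*, the Gq subunit, was slightly higher in each DTRScxLin library (log2 fold change 0.06, standard error 0.07), and *Rgs5*, *Rhoa* and *Rock2*, among the most abundant of the list, overlapped.

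Other vasoactive systems (natriuretic, adrenomedullin, CGRP, kinin, vasopressin, apelin, VIP, neuropeptide Y, nitric oxide and adrenergic genes) gave 32 tested genes of 41. Of these, 25 were fitted lower and 7 higher, with a median log2 fold change of -0.26. At an unadjusted p under 0.05 were 7 lower against 0 higher (5.45% and 5.52% of all tested genes). edgeR called 0 of them, and DESeq2 called 2 lower (1.53% of all genes it tested), *Ramp1* and *Nos1*. *Ramp1*, the receptor partner for CGRP, gave 1470, 1286 and 1131 for the WT tendons in replicate order and 394, 995 and 397 for the DTRScxLin tendons (log2 fold change -1.12 with SE 0.41, edgeR adjusted p = 0.447). *Nos1*, the neuronal nitric oxide synthase also found in muscle, stood at 722, 991 and 697 in the WT tendons, against 374, 595 and 349 in the DTRScxLin tendons (log2 fold change -0.87 with SE 0.24, edgeR adjusted p = 0.347). For both, DTRScxLin replicate 2 was the nearest to WT. It was also the DTRScxLin library with the most muscle, adipocyte (1467 CPM) and mast cell (87.1 CPM) marker transcripts. The part of any of these in the 2 differences was not tested.

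The rest of the 7 were *Vipr1*, *Ramp3*, *Npy1r*, *Gucy1a1* and *Npr1*, with log2 fold changes of -0.73, -1.16, -0.63, -0.47 and -0.29 and standard errors of 0.22, 0.40, 0.23, 0.18 and 0.12. *Npr2*, the receptor of C-type natriuretic peptide, was lower in each DTRScxLin library by a small margin (log2 fold change -0.14, standard error 0.08), and the scarce *Npy* and *Adra1b* were lower without overlap as well (-0.82 and -1.05, standard errors 0.38 and 0.48). *Nos3*, the endothelial synthase, and *Calcrl*, the shared CGRP and adrenomedullin receptor, overlapped at -0.09 and 0.13 (standard errors 0.13 and 0.11).

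**Figure D4:**
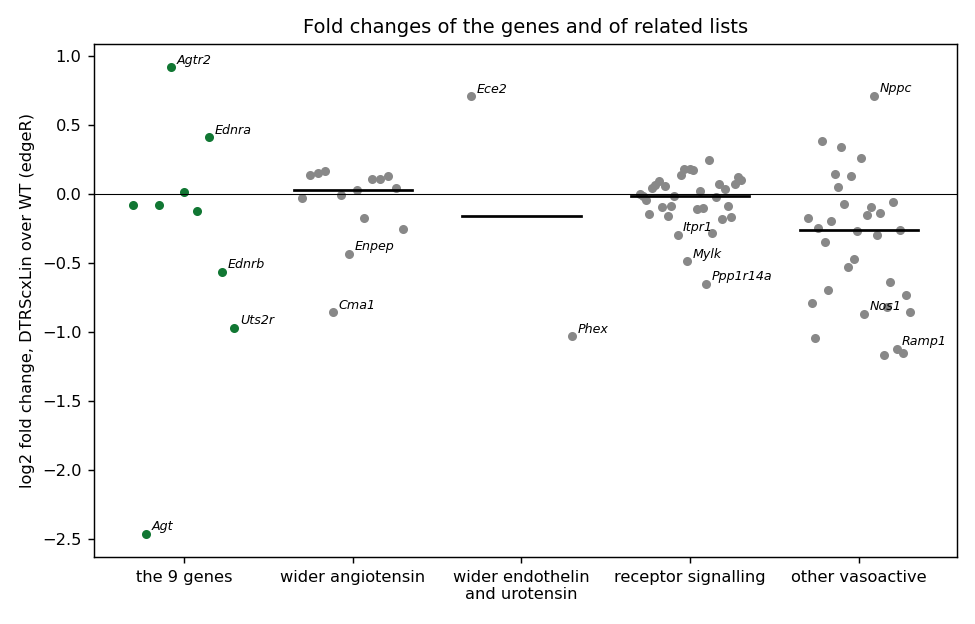
edgeR log2 fold changes of DTRScxLin over WT tendons (y axis) for the 9 genes in green and for the tested genes of 4 related lists in grey, with the median of each related list as a black line. The medians of the related lists were 0.03, -0.16, -0.01 and -0.26 from left to right, taken over all tested genes of a list, and 1 tested gene of the wider angiotensin list is not drawn.

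The tissue label was checked against tendon markers. *Scx* had 2202 to 3064 normalized counts in WT and 3407 to 3532 in DTRScxLin libraries, and *Tnmd* had at least 50514 in each. The 8 tendon markers summed to 22429 to 27083 CPM in WT and 27190 to 34055 CPM in DTRScxLin libraries. The paper states that it could not measure the efficiency of depletion after surgery. The number of *Scleraxis*-lineage cells left in these tendons is therefore not known. Of the 8, 6 were fitted higher, 3 of them at an unadjusted p under 0.05 (5.52% of all tested genes were higher). *Fmod* and *Comp* were fitted lower (log2 fold changes -0.17 and -0.18) with overlap between the genotypes. Of 12 macrophage markers 1 was lower at an unadjusted p under 0.05 (5.45% of all tested genes), with summed levels of 3838 to 4785 CPM in WT and 4051 to 4725 CPM in DTRScxLin libraries. Of 7 lymphatic markers 1 was lower at this p, with 249 to 364 and 277 to 377 CPM. The 12 keratinocyte markers summed to 3286, 1964 and 28.7 CPM in WT and 15.4, 26.7 and 302 CPM in DTRScxLin replicates 1 to 3, with all 12 fitted lower and 0 at an unadjusted p under 0.05, none at 0 in all libraries.

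**Figure D5:**
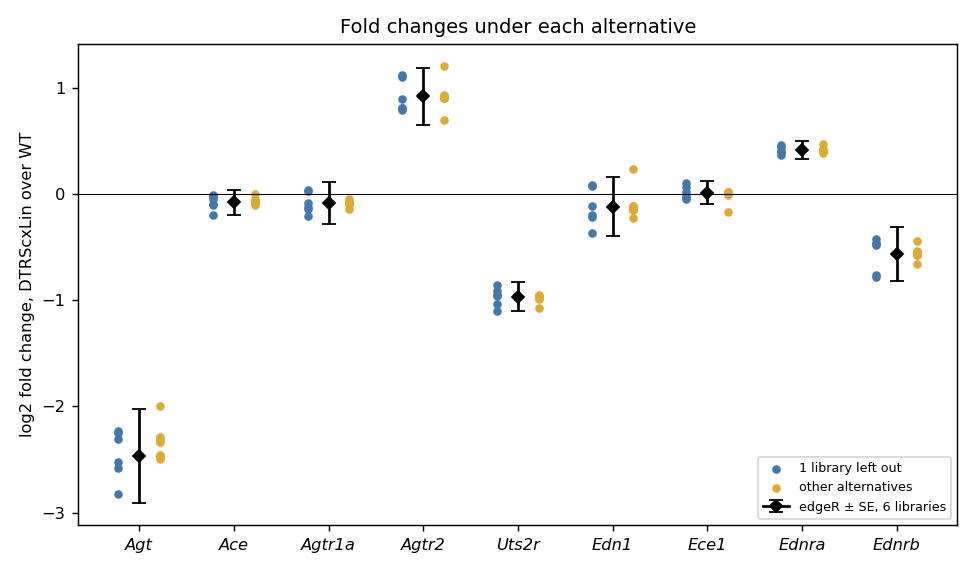
Log2 fold change of DTRScxLin over WT (y axis) of each of the 9 genes, with the edgeR value ± standard error in black, the values with 1 library left out in blue and those under the other alternatives in yellow. *Agt*, *Uts2r*, *Ednrb*, *Agtr2* and *Ednra* kept their sign under each alternative tried, while the other 4 genes crossed 0. *Agt* and *Uts2r* were picked for their fall in the same data.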

How the data were processed

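RNA-seq libraries were made from 200 ng of total RNA per tendon. The authors trimmed the single-end reads (FastP), assigned them to genes (featureCounts) and deposited raw counts and a signal table of the same counts divided by 1 size factor per library (DESeq2 1.22.1 per the labels). Aligner, build, annotation and strand setting are not given in the sources used here, so genes were matched by symbol. *Ace*, *Edn1* and *Ednra* share 295, 35 and 91 exon bases with genes on the opposite strand in GENCODE M21 and are uncertain to that extent.

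The counts were analysed with R 4.3.3 and edgeR 4.0.16 (filterByExpr, TMM, robust quasi-likelihood fit, genotype as the single term, Benjamini-Hochberg adjustment over 17496 genes). The edgeR standard errors are the size of the log2 fold change over the square root of the F statistic, and the 95% intervals were built from them. For *Agt* and *Uts2r* they are printed as a description. DESeq2 1.42.0 and limma 3.58.1 were alternatives. The study's own test was DESeq2. Replicates are separate tendons, and pairs of them differed far beyond sampling noise (chi-square per degree of freedom of 36.6 or more). The depth (at least 42744138 counts per library) makes counting error small beside n = 3 for abundant genes, though not for genes with few counts. Levels per kilobase used the union of GENCODE M21 exons.

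The 9 genes and all lists were chosen with earlier results of these data known, and no p is adjusted over a list. Named were the 9 genes, of each list the most abundant genes, those at an unadjusted p under 0.05 and those without overlap, and the 5 genes most like *Agt* and *Uts2r*. Some genes that this rule would name are not reported here.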

Additional observations from a re-analysis of the deposited data

How the results depend on the processing

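The alternatives were DESeq2, limma-voom, RLE, upper quartile and library size scaling, dropping the low-count filter, a stricter minimum of 10 counts per library, a replicate block, the deposited normalized counts as log2(value + 1), a skeletal muscle or *Xist* covariate, and each library left out. The number of genes called over the whole table was 466 with DESeq2, 83 without a filter and 1 with the replicate block, against 0, and from 0 to 544 with 1 library left out, the 544 without DTRScxLin replicate 2. Of the 7 genes not picked, 2 were called by DESeq2 and 0 by the others. Of the related lists, DESeq2 called 2 genes, and with 1 library left out 0 to 3 were called, the 3 (*Ramp1*, *Nos1* and *Cma1*) without DTRScxLin replicate 2. The replicate numbers were not used as pairs in the main fit. Same-numbered libraries deviated from their group means with correlations of -0.19, -0.15 and -0.68, which cannot show whether the tendons were paired.

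Signs changed for genes near 0. *Ace* was at 0.00012 with the *Xist* covariate. *Agtr1a* was at 0.025 without WT replicate 3 and 0.037 without DTRScxLin replicate 1, and from -0.21 to 0.037 over the libraries left out. *Edn1* was at 0.072 and 0.084 without the same libraries, from -0.37 to 0.084 over all left out, and at 0.23 with the muscle covariate. *Ece1* was at -0.17 with the muscle covariate, -0.014 with library size scaling, and -0.047, -0.030 and -0.034 without WT replicate 1, DTRScxLin replicate 1 and DTRScxLin replicate 3, with a range from -0.047 to 0.097. The cause was not tested. *Agt* and *Uts2r* moved by less than their replicate spread under each of 17 alternatives. Both were picked for their fall in the same counts, so this describes the processing and is no support for the fall. The longest transcript in place of the union of exons moved 6 of the levels per kilobase beyond their replicate spread. No scaling moved the median of all genes by over 0.1. With n = 3 per genotype, the spread between tendons and not the depth limited the precision for abundant genes. Counting error adds to it for genes with few counts, such as *Agt* at 54, 63 and 39 counts in DTRScxLin replicates 1 to 3.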
